A study of Mus musculus with 4 samples.

Results

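This report compares the accessible regions of Cdc14ab knockout cells with those of wild-type cells, both after 5 days of neural differentiation. The members are the peaks of the 2 day 5 lists, 227878 in the knockout and 189571 in wild type. Together they are 417449 of the 838566 peaks in the series. A peak counted as shared when it overlapped a peak of the other list by at least 1 bp, and all other peaks were called unshared.

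The cells were mouse embryonic stem cells derived from blastocysts, either wild type or Cdc14ab KO, which lacks both Cdc14a and Cdc14b. They were maintained on feeder cells with the cytokine LIF, moved to gelatin to remove the feeders, and then given N2B27 medium with the growth factors EGF and FGF2 for 5 days. Each genotype was also sampled at day 0 in LIF medium, so the series holds 4 libraries of single-nucleus ATAC-seq. Every library carries the label clone 3, and the labels do not say whether this number marks 1 derivation or separate ones. With 1 library per group there is no replicate check, no test was run, and the genotype cannot be told apart from the clone or the library. A peak list pools all nuclei of a library, so fewer cells of a type and less open chromatin per cell cannot be told apart either.

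CDC14 phosphatases remove phosphate groups that cyclin-dependent kinases place on their substrates, and are best known for their work in leaving mitosis. ATAC-seq maps open chromatin with a transposase that cuts DNA not covered by nucleosomes, chiefly at promoters and enhancers. When stem cells leave pluripotency for the neural lineage, enhancers of pluripotency genes close and distal elements around neural regulators, adhesion molecules and guidance receptors open.

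The wild-type day 5 library stood apart from the others at some Y-linked genes. The whole of Y held 16 peaks in each day 0 list, 20 in the day 5 wild type and 14 in the day 5 knockout. Of 8 Y-linked genes examined, Eif2s3y, Uty and Ddx3y overlapped a peak in wild type at day 5, and 0 of the 8 did so elsewhere. On X, 4112 peaks were listed for the day 5 wild type and 6659 for the day 5 knockout, and its log2 ratio of covered bp relative to the autosomes was 0.44, against 0.22 at day 0. Ratios of the autosomes ran from −0.13 (chromosome 12) to 0.10 (chromosome 5), so gene loci and windows below are restricted to autosomes. The day 0 wild-type library, labelled with the same clone, had no peak at these genes, so whether both wild-type libraries come from 1 line, or hold other cells, is uncertain and was not tested. Every day 5 ratio below uses the 1 day 5 wild-type library, and a difference of line cannot be told apart from the genotype. Cover at day 5 was 197.3 Mb for the knockout and 162.5 Mb for wild type, with median peak widths of 882 and 879 bp. They carry no height or count, so the read depth is unknown, and a missing peak can be closed chromatin or too few reads. Where 4 values follow each other below, they stand in the order day 0 wild type, day 0 knockout, day 5 wild type and day 5 knockout.

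The longer knockout list had more unshared peaks, and many of them marked sites that were already open at day 0. Of its peaks, 82078 (36%, 95% exact binomial interval 35.8 to 36.2) had no overlap in wild type. Among wild-type peaks the number was 44051 (23.2%, 23.0 to 23.4). The intervals cover counting error only. Shared peaks numbered 145800 in the knockout list and 145520 in the wild-type list, so this excess follows the list lengths by construction. With the widest peaks in equal numbers, 33.2% (63002) of knockout and 33.0% (62467) of wild-type peaks were unshared. Near-equal shares are fixed by the equal lengths there, so they do not bear on the genotypes. Bases covered in both lists came to 117.0 of 242.4 Mb covered in either, a ratio of 0.484. Unshared peaks were about as wide as shared ones, with medians of 868 bp for the knockout and 866 bp for wild type, against 888 and 881 bp for shared peaks.

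Of the knockout-only peaks at day 5, 44.5% (44.2 to 44.9) overlapped a day 0 wild-type peak and 52.2% (51.8 to 52.5) a day 0 knockout peak. Of the wild-type-only peaks, 20.1% (19.7 to 20.5) overlapped a day 0 wild-type peak and 25% (24.6 to 25.4) a day 0 knockout peak. Sites in neither day 0 list made up 40.2% of the knockout-only and 68.3% of the wild-type-only peaks. The wild-type-only peaks were thus more often absent at day 0, by more than the counting error. Part of this gap goes with list length: with the widest peaks in equal numbers from each library, the share also listed in wild type at day 0 was 44.4% for knockout-only and 32.8% for wild-type-only peaks. Shared peaks were mostly present before differentiation, 81.1% of them in the day 0 wild type and 84.1% in the day 0 knockout (counted in the knockout list).

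**Figure D1:**
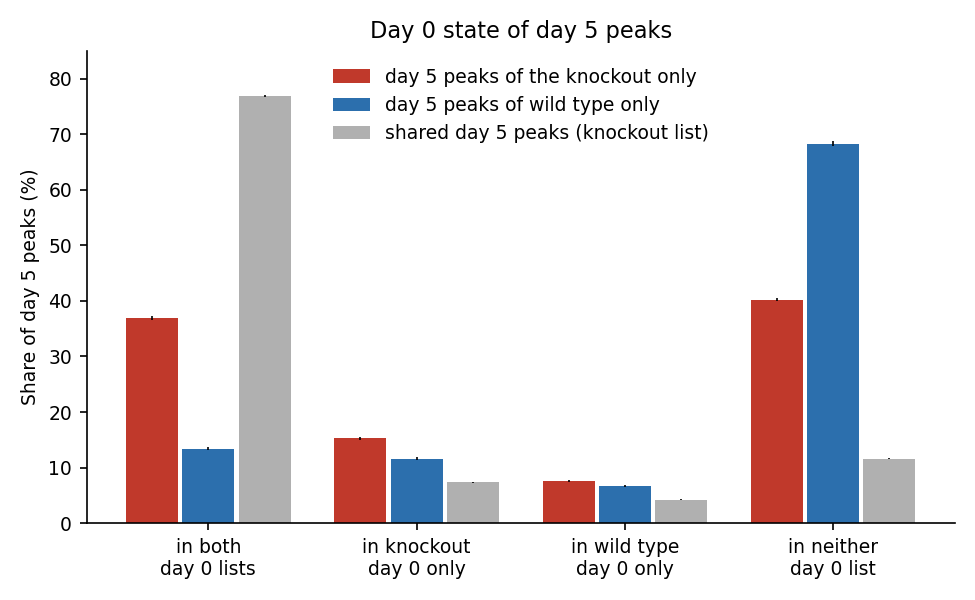
Share of day 5 peaks (%, vertical axis from 0) that overlapped peaks of both day 0 lists, of 1 of them, or of neither, for knockout-only, wild-type-only and shared peaks, with 95% exact intervals for counting error. Of the wild-type-only peaks 68.3% were in neither day 0 list, against 40.2% of the knockout-only peaks and 11.6% of the shared peaks.

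Most unshared peaks lay far from promoters. Within 1 kb of a transcript start lay 1.66% (1.58 to 1.75) of the knockout-only peaks and 1.55% (1.44 to 1.67) of the wild-type-only peaks, against 9.63% (9.48 to 9.79) of the shared peaks. Gene bodies outside that distance held 49.0 and 49.2% of the unshared peaks. The median distance to a transcript start was 45.6 kb for knockout-only and 73.1 kb for wild-type-only peaks, and 34.5 kb for shared peaks, so the wild-type-only sites were the most distal. The widest wild-type-only peak, of 1879 bp, lay in Sult6b2, a sulfotransferase gene, and the next, of 1696 bp, in Slit2, a secreted ligand that repels axons. The others of the 5 widest lay in Tnrc18 and Matn2 and 1410 kb from Efnb2. The 5 widest knockout-only peaks lay between genes, nearest to Ptprk (2003 bp), Gm19410, Rai14, Gipc2 and Zfp608, at distances of 20.5 to 426 kb.

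Most promoters were open in both day 5 libraries. A transcript start was available for 17492 protein-coding genes, and a start peak is any covered base within 1 kb of it. Peaks marked the start in both day 5 libraries for 12486 genes (71.4%), in the knockout only for 526 (3.01%) and in wild type only for 250 (1.43%). Of the 526 genes, 46.6% (42.2 to 50.9) had one in the day 0 wild type and 55.3% (51.0 to 59.6) in the day 0 knockout. Of the 250, 35.6% (29.7 to 41.9) and 37.2% (31.2 to 43.5) did so. The balance turned with the widest peaks in equal numbers, to 433 genes in the knockout only and 1063 in wild type only, so the direction over all genes depends on how the lists are made comparable.

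Of 456 listed genes with a known start, 13 had a start peak in the knockout only and 2 in wild type only, beside 3.01 and 1.43% of all genes, so knockout-only starts were not more frequent among the listed genes. Lin28a encodes an RNA-binding protein that blocks let-7 maturation in stem cells, and a peak covered its start in the day 0 wild type (134018626 to 134019480), the day 0 knockout (134018587 to 134019473) and the day 5 knockout (134018589 to 134019500), but not in the day 5 wild type. Tcl1, a coactivator of AKT kinase and a marker of naive stem cells, showed the same presence and absence, with a knockout day 5 peak at 105222440 to 105223329 of chromosome 12. So did Gfap, the intermediate filament gene of astrocytes (102896502 to 102897421 of chromosome 11), and Nr2f2, a nuclear receptor gene (70366083 to 70366941 of chromosome 7). These 4 starts were thus open in every library except the day 5 wild type. The converse was seen at S100b, a calcium-binding protein gene of astrocytes, where the day 5 wild type alone had a peak (76253343 to 76254243 of chromosome 10).

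The promoters of these 5 genes are printed because their starts were covered in 1 day 5 library and bare in the other. Each runs 5′ to 3′ on the gene's strand from 250 bases before to 50 bases after the RefSeq transcript start (GRCm38.p6, whose chromosome coordinates are those of mm10), with CpG dinucleotides in capitals. They lie at chr4:134018767-134019066 (Lin28a, minus strand), chr12:105222688-105222987 (Tcl1, minus), chr11:102897151-102897450 (Gfap, minus), chr7:70366697-70366996 (Nr2f2, minus) and chr10:76253586-76253885 (S100b, plus).
Lin28a: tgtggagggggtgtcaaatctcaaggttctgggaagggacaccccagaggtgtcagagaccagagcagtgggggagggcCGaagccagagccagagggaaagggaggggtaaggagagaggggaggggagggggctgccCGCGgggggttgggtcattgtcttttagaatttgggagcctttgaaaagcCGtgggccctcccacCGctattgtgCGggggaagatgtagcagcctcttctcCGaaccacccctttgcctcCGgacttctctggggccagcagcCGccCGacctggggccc
Tcl1: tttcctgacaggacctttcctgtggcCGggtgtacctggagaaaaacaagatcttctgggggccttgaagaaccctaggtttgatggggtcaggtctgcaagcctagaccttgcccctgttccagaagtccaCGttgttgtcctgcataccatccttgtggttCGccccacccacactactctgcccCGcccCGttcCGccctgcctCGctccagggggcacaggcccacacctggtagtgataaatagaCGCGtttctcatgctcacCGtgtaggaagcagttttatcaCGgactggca
Gfap: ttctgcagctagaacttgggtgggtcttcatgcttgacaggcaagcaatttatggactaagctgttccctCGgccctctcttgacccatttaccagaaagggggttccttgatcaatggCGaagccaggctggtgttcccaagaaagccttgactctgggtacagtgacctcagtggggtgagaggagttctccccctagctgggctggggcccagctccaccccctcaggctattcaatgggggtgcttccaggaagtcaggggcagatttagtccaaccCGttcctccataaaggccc
Nr2f2: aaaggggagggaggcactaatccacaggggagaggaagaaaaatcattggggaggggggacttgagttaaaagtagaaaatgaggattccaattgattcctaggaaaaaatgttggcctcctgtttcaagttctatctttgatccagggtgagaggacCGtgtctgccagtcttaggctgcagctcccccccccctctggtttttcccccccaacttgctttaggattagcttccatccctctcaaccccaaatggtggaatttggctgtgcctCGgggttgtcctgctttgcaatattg
S100b: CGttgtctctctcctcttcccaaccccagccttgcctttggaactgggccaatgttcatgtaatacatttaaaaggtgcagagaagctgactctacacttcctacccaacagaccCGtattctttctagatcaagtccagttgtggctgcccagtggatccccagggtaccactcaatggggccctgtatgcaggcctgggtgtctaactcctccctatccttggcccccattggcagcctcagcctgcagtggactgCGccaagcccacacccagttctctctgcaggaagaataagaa
Lin28a and Tcl1 held 10 and 11 CpG dinucleotides, against 3 in Gfap, 2 in Nr2f2 and 3 in S100b. Over all 21263 promoter windows of this length the median was 13.

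CpG and GC content separated unshared from shared promoters more than it separated the genotypes. Windows overlapped by a knockout peak only (649 starts) had a median of 5 CpG dinucleotides and 51.0% GC, and those overlapped by a wild-type peak only (470 starts) had 5 and 53.7%. Windows with peaks in both libraries (13791 starts) had 21 and 61.3%, and those with neither (6353) had 2 and 45.7%. Motifs were searched on both strands. The E-box CAGCTG occurred in 22.5% (19.3 to 25.9) of knockout-only and 23.6% (19.8 to 27.7) of wild-type-only windows, against 15.6% of all windows. The octamer ATGCAAAT, the motif bound by POU factors such as OCT4, occurred in 0.616% (0.168 to 1.57) of knockout-only and 2.13% (1.02 to 3.88) of wild-type-only windows, 4 and 10 windows, against 1.66% of all. TATAAA was found in 17.9% (15 to 21) and 16.4% (13.2 to 20), against 12.6% of all. CCAAT was found in 32.7% (29.1 to 36.4) and 33.2% (28.9 to 37.7), against 38.2% of all, and the KLF box CCACACCC in 6.32% (4.57 to 8.47) and 4.47% (2.79 to 6.75), against 3.63%. A match is a description of the letters and not of a bound factor. Of the printed promoters, Nr2f2 holds CCAAT and S100b holds CCAAT and CCACACCC, and the other motifs were not found in the 5.

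Of the other list members with a knockout-only start peak, Nrp1, Cyp26c1, Krt14, Hoxd12 and Ncoa6 also had one in both day 0 libraries. Hnf4a and Runx2 had one in the day 0 knockout and not in the day 0 wild type. Cdon, a hedgehog co-receptor, and Tex13b, which lies on X, had one in neither. The second gene with a wild-type-only start peak was Prrx1, a homeobox gene of mesenchyme, and that peak (163311757 to 163312661 of chromosome 1) did not cover the start at 163313650. A start peak and the surrounding locus could differ: the day 5 cover of the Lin28a locus was 18.1 kb for wild type and 20.4 kb for the knockout, a ratio just below that of the median locus.

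Loci were compared by the bp that peaks covered in the gene body and 50 kb on each side. The log2 ratio of knockout over wild type was taken after adding 500 bp to both, and the median over autosomal protein-coding loci, 0.30, was subtracted, because the knockout list was longer. At day 0 that median was 0.11. All locus ratios below are relative to the median locus, and a call means a ratio of at least 0.5 or at most −0.5 with at least 5000 bp on average, which is a size and not a test. Of 17555 loci that passed, 896 (5.10%) were called higher in the knockout and 743 (4.23%) lower. Without subtracting the median, the calls were 3871 higher and 184 lower, and with the gene body only they were 826 higher and 262 lower. Overlapping called loci merged into 554 and 540 separate regions. Median cover of the loci called higher was 12.3, 14.4, 7.51 and 15.5 kb in the 4 libraries. For loci called lower the medians were 10.4, 11.9, 13.9 and 10.7 kb. Loci and windows picked by their day 5 ratio put the day 5 libraries toward the ends of the 4 values by that choice, here and below. Ratios at day 5 and at day 0, which share no library, had a Pearson r of 0.06 across the 17555 loci, many of which overlap.

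Most of the lowest loci were long genes, and several of them encode proteins of neuronal adhesion, axon guidance or synapses. From the lowest, the 15 with at least 10000 bp on average and 500 kb apart included Mgat4c (−1.52), Shisa6, Mdga2, Ano3, Sema6d (−1.37), Dcc (−1.36), Cntn1, Lrp1b, Fign, Ppp1r1c, Sema3a (−1.21), Gm2115, Cdh12 and Ptprd (−1.18). Their gene bodies ran from 52.3 to 2271 kb with a median of 479 kb, against 20.9 kb for all loci that passed. Together they held 336 wild-type-only and 58 knockout-only peaks, a direction set by choosing them for low ratios. The whole lists held 44051 and 82078. Of the 336 wild-type-only peaks, 30 overlapped a day 0 wild-type peak and 37 a day 0 knockout peak. Over all wild-type-only peaks the shares were 20.1% and 25%, so most of them were absent from each day 0 list in any case.

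Dcc encodes the receptor for netrin, a guidance cue of growing axons. Its locus covered 9.66, 13.4, 48.6 and 23.0 kb. Wild type at day 5 was far above the other libraries, and the knockout at day 5 lay between it and day 0. At day 5 wild type had 55 peaks there and the knockout 26, of which 36 and 7 were unshared. Of the 36, 0 overlapped a day 0 peak of either genotype. Over all wild-type-only peaks, 68.3% were in neither day 0 list. An interval for the ratio of the 26 and 55 peaks ran from −2.10 to −0.67. Like all intervals of this kind, it covers counting error only and does not allow for the choice of this locus among 17555.

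Ptprd, a receptor phosphatase of synapses, covered 20.7, 23.4, 63.7 and 34.3 kb. Sema3a, a secreted repellent of axons, covered 21.7, 24.8, 46.4 and 24.4 kb. At Sema6d, a membrane-bound semaphorin, the values were 15.1, 17.4, 30.8 and 14.3 kb. At Sema3a the day 5 knockout thus lay between the day 0 libraries and at Sema6d just under them, while at Ptprd it was above them. Mgat4c, a glycosyltransferase gene, covered 9.05, 8.11, 25.4 and 10.6 kb. Over all 15 loci, the interval of the peak-number ratio lay below 0 at 14, the exception being Gm2115 (−2.72 to 0.02).

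The highest loci formed no such group. They were Tacr1 (1.32), Rchy1 (1.28), Gm52051 (1.26), Col6a6 (1.21), Pdap1 (1.2), Bhmt, Mphosph8, I830077J02Rik, Naalad2, Cfap53, Ugt1a6a, Lmo4, Elp3, Bola3 and Cdpf1 (1.04), with gene bodies of 4.73 to 158 kb. Tacr1, the receptor for substance P, covered 13.7, 16.7, 5.28 and 17.3 kb. Col6a6, a collagen VI chain gene, covered 19.1, 26.1, 10.8 and 31.5 kb. At Tacr1 the day 5 knockout was close to its day 0 value and at Col6a6 above it. The 15 loci held 215 knockout-only and 7 wild-type-only peaks, a direction set by choosing them for high ratios. The whole lists held 82078 and 44051. Of the 215, 90 overlapped a day 0 wild-type peak and 121 a day 0 knockout peak. Over all knockout-only peaks the shares were 44.5 and 52.2%. The interval of the peak-number ratio lay above 0 at 4 of the 15 (Gm52051, Col6a6, Bhmt and Cfap53), so most of these differences rest on few peaks. With the gene body alone, without flanks, the ratio turned below 0 at Gm52051 (−0.11), Bhmt (−0.14), Lmo4 (−0.04) and Bola3 (−0.13), where the difference lay in the flanks.

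**Figure D2:**
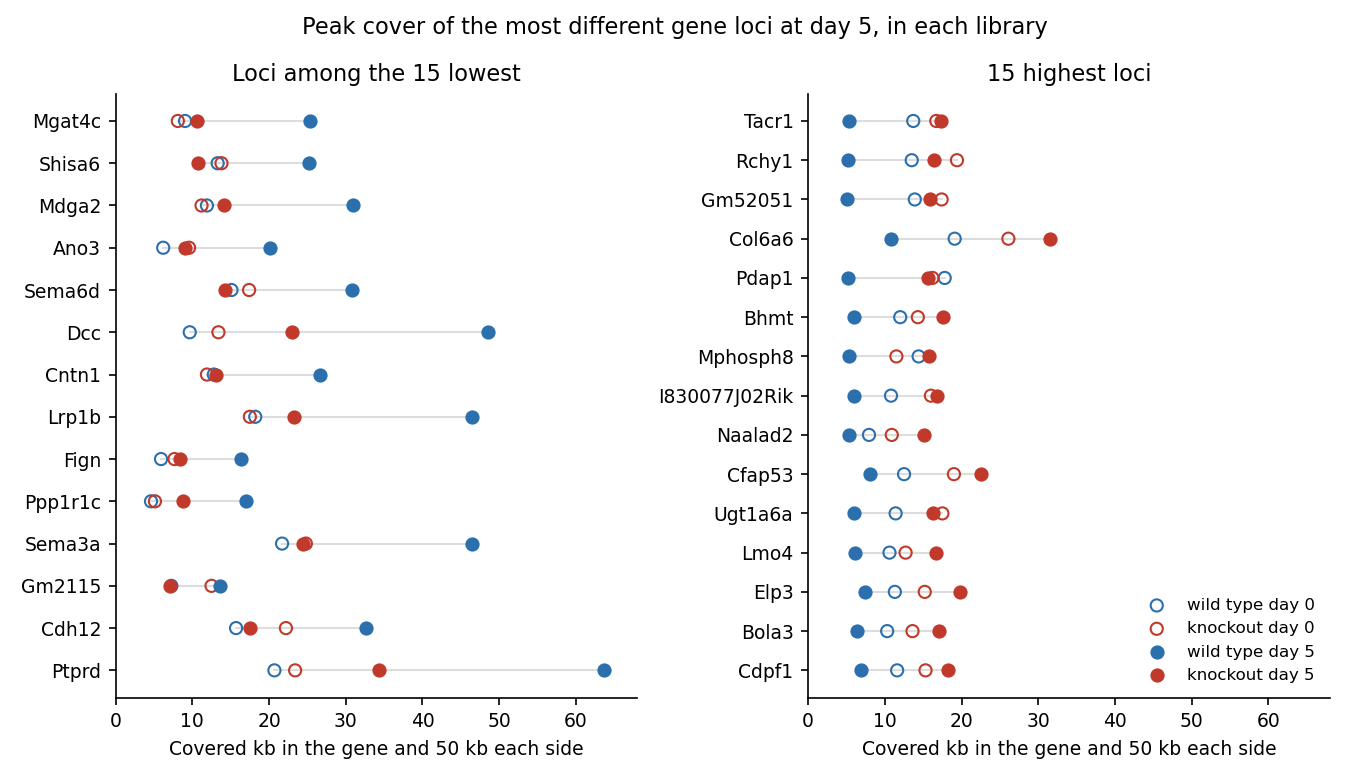
Covered kb (horizontal axes, from 0) in the gene and 50 kb on each side for loci among the 15 lowest (left) and for the 15 highest (right) at day 5, 1 point per library, with open circles for day 0 and filled circles for day 5. At Dcc the wild type at day 5 stands at 48.6 kb and the other libraries between 9.66 and 23.0 kb, while at Tacr1 it stands at 5.28 kb and the others between 13.7 and 17.3 kb.

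Loci of the longest genes had the lowest ratios at day 5 and not at day 0. The 530 loci of genes over 300 kb had a median of −0.19 at day 5 and 0.07 at day 0, and 125 (23.6%) were called lower and 12 (2.26%) higher. Their median cover was 27.9, 32.2, 35.5 and 36.7 kb. In the 4 classes of shorter genes, 2.87 to 7.27% were called lower. Among the genes over 300 kb, the 24 in the lists for neural progenitor, glial, neuronal and axon guidance genes had a median of −0.58, with 15 called lower, and the 506 in none of these lists had a median of −0.19, with 110 (21.7%) called lower. Long genes outside the neural lists were thus also called lower more often than the 4.23% of all loci. Neural function and gene length overlap in these lists, and their parts cannot be told apart.

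With genes of every length counted, axon guidance had the lowest median of the 30 gene lists, with 12 of 24 loci called lower, 0 called higher and a median of −0.52 (0.05 at day 0). Over all loci that passed, 4.23% were called lower and the median was −0.01. Their peaks made up 0.344, 0.326, 0.511 and 0.361% of the covered bp of each library. They held 413 wild-type-only and 259 knockout-only peaks, while over the whole lists knockout-only peaks were the more numerous (82078 against 44051). The direction also held before centring, at −0.22. Among the 11 genes of at most 300 kb the median was −0.27, level with the neural progenitor (−0.27) and neuronal (−0.26) genes of that length, so the first place in this order rests on the longer genes.

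Among secreted or membrane-bound guidance ligands, Sema6d (−1.37), Sema3a (−1.21), Sema3c (−0.96), Slit2 (−0.75) and the ephrin gene Efna5 (−0.67) were called lower, while Slit3 (−0.40), Slit1 (−0.30) and the netrin gene Ntn1 (−0.27) were not. Sema3c covered 8.32, 14.5, 18.6 and 11.6 kb. Among receptors, Dcc, Epha3 (−1.15), the netrin receptor gene Unc5c (−1.14), Nrp1 (−0.59), Plxna4 (−0.58) and the Slit receptor genes Robo2 (−0.57) and Robo1 (−0.54) were called lower. Unc5c covered 18.4, 23.4, 26.1 and 14.4 kb. Ligands and receptors were both among the called genes. The 3 members above the median locus were the receptor genes Unc5b (0.18), Epha5 (0.05) and Unc5d (0.01).

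Of the 24 neuronal loci that passed, 9 were called lower and 1 higher, beside 4.23 and 5.10% over all loci. Their median was −0.34 (0.02 at day 0, and −0.04 at day 5 before centring). Nav3, a microtubule-associated guidance protein gene, covered 22.3, 26.2, 55.5 and 32.6 kb (−1.06). The presynaptic neurexin gene Nrxn3 covered 44.6, 38.8, 76.5 and 51.0 kb (−0.88). At both genes wild type at day 5 was the highest library. Map2 (−0.83), the proneural factor gene Neurod4 (−0.81), Myt1l (−0.76), the neuronal tubulin gene Tubb3 (−0.60), Ebf1 (−0.56) and Neurod1 (−0.54) were also called lower. Onecut2, a homeobox factor gene, was the 1 called higher (0.56), with 16.0, 19.8, 11.6 and 21.5 kb. Start peaks did not follow the loci: of 16 neuronal genes with a known start, 15 had a start peak in each of the 4 libraries.

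Neural progenitor genes lay below the median locus in 27 of 30 cases, with a median of −0.27 (−0.04 at day 0). Of the 30, 6 were called lower and 0 higher, beside 4.23 and 5.10% over all loci. Before centring the median was 0.02, and 14 of the 30 covered fewer bp in the knockout, so these loci were lower relative to the median locus and near equal in covered bp. Their day 5 sums were 531 kb for wild type and 545 kb for the knockout. Cdh2, the N-cadherin gene, was the lowest (−0.92), with 19.8, 23.0, 36.8 and 23.7 kb, followed by Sox11 (−0.76) and the growth factor gene Ptn (−0.61). Pax3 (−0.55) and Meis1 (−0.51) were also called lower. The defining progenitor genes lay between the call and 0, with Pax6 at −0.40, Nes at −0.32 and the SoxB1 factor gene Sox1 at −0.24. With 10 kb flanks they were at −0.28, −0.08 and 0.13, and with the gene body only at −0.20, −0.12 and 0.01. Pax6 covered 16.6, 13.4, 16.5 and 15.4 kb, and Sox1 12.2, 12.6, 12.8 and 13.3 kb, so neither differed by much between libraries. Of 21 progenitor genes with a known start, 20 had a start peak in wild type and 21 in the knockout at day 5. The label of neural cells was thus matched by open starts in both libraries, but 20 and 21 of these starts were also open at day 0.

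Radial glia and glia genes had a median of −0.11, with 6 of 20 called lower and 0 higher, beside 4.23 and 5.10% over all loci. Before centring the median was 0.19, and 7 of the 20 covered fewer bp in the knockout. Their day 5 sums were 494 kb for wild type and 534 kb for the knockout. Nfia, a factor gene of the switch from neuron to glia production, covered 20.1, 21.1, 53.6 and 32.0 kb (−1.03). It held 36 wild-type-only peaks, of which 1 overlapped a wild-type peak of day 0, beside 20.1% of all wild-type-only peaks. Its relative Nfib pointed the other way, with 43.9, 46.8, 39.8 and 62.5 kb (0.35, not called). Cd44 (−0.81), Olig1 (−0.65), Olig2 (−0.63), Tnc (−0.60) and the glutamate transporter gene Slc1a2 (−0.53) were the other called members.

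Pluripotency loci were close to the median locus. In the core list 9 of 14 lay above the median locus, 2 were called higher and 0 lower, with a median of 0.09 (0.00 at day 0, and 0.03 at day 5 with the widest peaks in equal numbers), beside 5.10% called higher over all loci. The 2 were Dppa4 (0.89) and Dppa2 (0.65), neighbouring regulators of early embryonic genes that share most of their window. Dppa4 covered 15.5, 23.6, 10.2 and 23.8 kb. Pou5f1, which encodes OCT4, covered 25.9, 27.3, 18.6 and 26.3 kb (0.19), Nanog 27.2, 27.3, 17.8 and 26.2 kb (0.25) and Sox2 19.5, 24.1, 18.3 and 24.4 kb (0.11). At Pou5f1 and Nanog the day 5 wild type was the lowest library, and the other 3 were close to each other. These ratios depend on the window: with 10 kb flanks Nanog was at −0.04, and with the gene body only Nanog was at −0.08, Sox2 at −0.2 and Pou5f1 at 1.05. With the widest peaks in equal numbers Pou5f1 was at 0.04. Before centring, all 14 core loci covered more bp in the knockout, as most loci did (median 0.30 over all loci). They held 128 knockout-only and 28 wild-type-only peaks, beside 82078 and 44051 in the whole lists. The core genes summed to 294, 333, 237 and 323 kb.

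In the naive list 2 of 19 loci were called higher, the cytokine receptor gene Il6st (0.67) and Fbxo15 (0.51), beside 5.10% over all loci. Of the 19, 10 lay above and 9 below the median locus, with a median of 0.04. Klf4 (−0.09), Esrrb (−0.03) and Zfp42 (−0.02) lay near the median locus, and Stat3 was the lowest member (−0.27). With 10 kb flanks Klf4 was at −0.22, Esrrb at −0.03 and Zfp42 at −0.53. With the gene body only they were at −0.11, 0.20 and −0.47, so these ratios also depend on the window. Of the 14 formative genes, switched on as the naive state ends, Foxd3 (0.77) and Wnt8a (0.60) were called higher, and the median was 0.00. Fgf5 (−0.19) and Otx2 (−0.06) were not called, and with the gene body only they were at −0.07 and −0.52. Utf1, a chromatin factor gene of stem cells, had a ratio of −0.04 and covered 16.5, 19.5, 16.3 and 19.6 kb. The targeted genes themselves covered more bp in the knockout at both days: Cdc14a 25.2, 34.1, 19.6 and 35.0 kb (0.52) and Cdc14b 21.4, 30.4, 21.8 and 31.6 kb (0.23). Peaks at these loci do not check the genotype, because the position of the deletion is not given in the labels.

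Lists of chromatin regulators and germ line genes had medians just above the median locus and few calls, beside 5.10% called higher over all loci. Germ line genes had a median of 0.16, which was 0.02 with 10 kb flanks, and Hormad1 (0.56) and Dmrt1 (0.55) were called higher of 14. Among 26 Polycomb genes the PRC1 members L3mbtl2 (0.67) and Rnf2 (0.62) were called higher, with a median of 0.09. Of 16 Trithorax genes 0 were called in either direction (median 0.08). Among 16 genes of DNA methylation and its removal, the methyl-CpG reader gene Mbd1 (1.08) and the demethylase gene Tet3 (0.54) were called higher (median 0.08). Mbd1 covered 11.3, 15, 5.35 and 14.7 kb, and shares its window with Cfap53.

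Signalling lists were close to the median locus, with medians of −0.12 to −0.02 and calls that are read beside 4.23% lower and 5.10% higher over all loci. With 10 kb flanks the Notch median was −0.27 and the Wnt median 0.15. In the Notch list the ligand gene Jag1 (−0.65) and the effector gene Hey2 (−0.58) were called lower and the ligand gene Dll3 (0.52) higher, of 21. The Wnt list of 26 had Rspo2, a secreted enhancer of Wnt signals, as its 1 lower gene (−0.72) and the ligand gene Wnt8a as its 1 higher gene. Egfr, the receptor for the EGF in the medium (−0.70), and Fgf10 (−0.67) were the 2 lower genes of the 24 in the FGF list. Egfr covered 16.5, 18.2, 34.4 and 25.9 kb, so both genotypes covered more at day 5 than at day 0. The receptor gene Bmpr1b (−0.86) was the 1 call among 28 genes of the BMP list, Hhip (−0.54) among 17 hedgehog genes, and Aldh1a1 (−0.76) and Rara (−0.55) were the 2 among 16 retinoic acid genes. Before centring, the medians of these 6 lists lay above 0, between 0.18 and 0.28.

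Among 59 bivalent regulators 39 lay below the median locus, 8 were called lower and 2 higher, beside 4.23 and 5.10% over all loci, with a median of −0.06 (−0.21 with 10 kb flanks). The 8 included Otx1 (−0.70), Olig1, Olig2, Pax3, Neurod1, Nkx2-2 (−0.52) and Pax9 (−0.51), which encode developmental transcription factors, and the 2 were Gata6 (0.53) and Nkx2-1 (0.53). Of 39 Hox genes, 29 lay below and 0 were called, with a median of −0.12. Hox genes of a cluster share their windows, and before centring 3 covered fewer bp in the knockout. Mesoderm genes had 0 calls and a median of −0.01, endoderm genes 1 call (Gata6) and a median of −0.01. Mitotic genes had a median of −0.01, which was −0.22 with 10 kb flanks, and Cdc14a and Bub1 (0.51) were called higher of 30, near the 5.10% over all loci. Housekeeping genes had a median of −0.11 with 0 calls.

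Markers of fibroblasts, the cells used as feeders, included several called loci. Of 20 loci that passed, 7 were called lower in the knockout and 1 higher (Tagln, 0.71), beside 4.23 and 5.10% over all loci, with a median of −0.16 at day 5 and 0.33 at day 0. The 7 were Postn (−1.02), Prrx1 (−1.0), Twist1 (−0.92), Dcn, Cd44, Col3a1 (−0.79) and Tnc. Before centring the list median at day 5 was 0.14. The 22 autosomal markers of the list held 0.153, 0.176, 0.190 and 0.165% of the covered bp of each library, and none of the 22 was at 0 in any of them. Cd44 and Tnc also stand in the glial list. The share was highest in the day 5 wild type, the library with peaks at 3 Y-linked genes, and lowest in the day 0 wild type. The part of other cell types in the lower ratios of the neural and glial loci was not tested.

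The autosomes were also divided into 1 Mb windows, with the ratio centred on the median window (0.26 before centring). Calls were made at the same sizes with at least 10000 bp on average at day 5. Of 2333 autosomal windows, 232 (9.94%) were called lower in the knockout and 70 (3.00%) higher. At day 0 the numbers in the same windows, which had passed on day 5 cover, were 62 lower (2.66%) and 77 higher (3.30%). Without centring, 93 windows were lower and 330 higher at day 5. Windows called lower had a median of 1 protein-coding gene, against 6 over all windows and 6 in windows called higher, and 50 of them held no gene. Their median cover was 16.9, 19, 33.9 and 23.3 kb. The knockout at day 5 was between its day 0 value and wild type at day 5. Of the 232 windows 21 were also lower at day 0, and of the 70 none was also higher at day 0.

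Gene-poor windows had the lowest ratios at day 5. The median was −0.29 in windows with no gene, −0.27 with 1 or 2 genes, −0.07 with 3 to 5, 0.05 with 6 to 10, 0.10 with 11 to 20 and 0.06 with more. The day 0 medians of the same windows stayed between −0.09 and 0.04. Cover also went with gene number: windows with no gene had a median day 5 cover of 17.7 kb for wild type and 17.4 kb for the knockout, and those with 11 to 20 genes of 97.6 and 124 kb. Gene-poor windows thus covered about equal bp in the 2 libraries, while gene-rich windows covered more in the knockout. Gene number and cover cannot be told apart here.

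**Figure D3:**
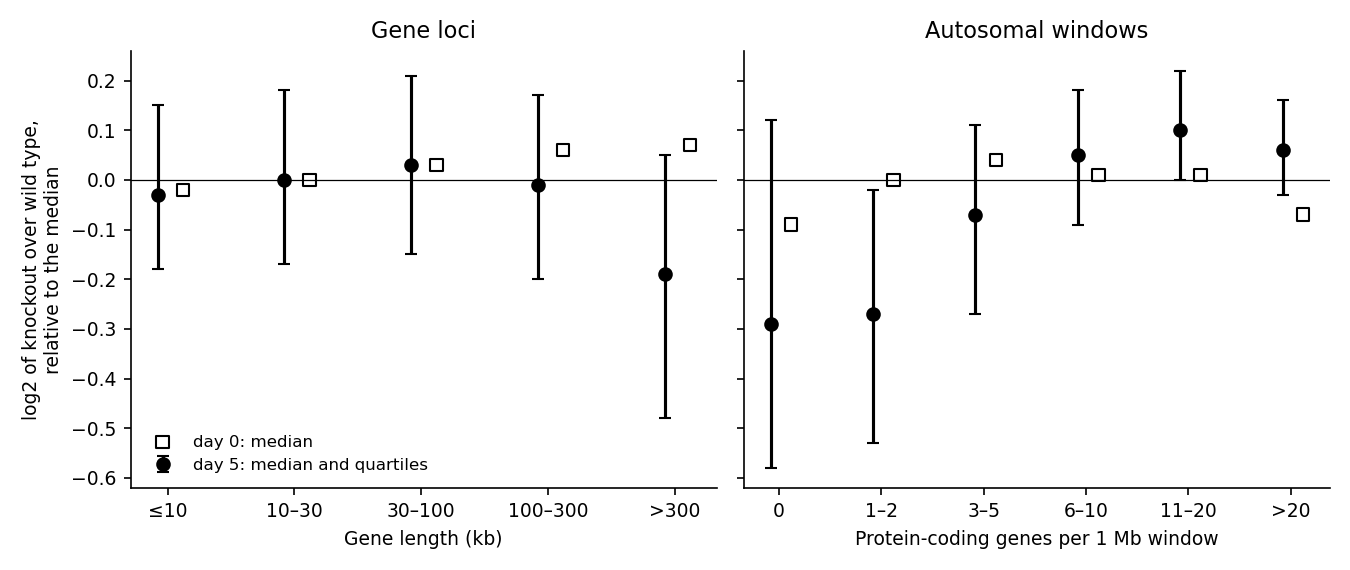
Median log2 ratio of knockout over wild type, relative to the median locus or window (vertical axes), by gene length (left) and by the number of protein-coding genes in a 1 Mb window (right), with filled circles and quartile bars for day 5 and open squares for day 0. At day 5 the genes over 300 kb (−0.19) and the windows with 0 genes (−0.29) or 1 to 2 genes (−0.27) lie below 0, while the day 0 medians lie between −0.09 and 0.07.

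The lowest window, at 94 to 95 Mb of chromosome 12, held no protein-coding gene and covered 5.32, 5.52, 22.1 and 5.30 kb (−2.22). Wild type at day 5 had 25 peaks there and each other library 6. Its neighbour holds Flrt2, an adhesion and axon guidance gene, and was the fifth lowest (−1.49), with 14.5, 32.5, 36.9 and 15.5 kb. The window at Tenm2, a teneurin adhesion gene, covered 10.9, 12.4, 46.6 and 15.9 kb (−1.78), and that at the end of Lrp1b 13.0, 8.47, 25.2 and 8.71 kb (−1.74). At 6 to 7 Mb of chromosome 12 a window without genes covered 11.8, 7.18, 14.9 and 5.33 kb (−1.66). The knockout at day 5 was thus at or below its own day 0 cover in 3 of these 5 windows.

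Several of the highest windows held gene families in many similar copies. The window at 11 to 12 Mb of chromosome 7 contains Zscan4c, Zscan4d and Zscan4f, genes of the 2-cell-like state, and 5 Vmn1r pheromone receptor genes, and covered 12.6, 11.7, 3.58 and 23.2 kb (2.28). A window of chromosome 19 with 11 Cyp2c cytochrome genes covered 12, 16.0, 7.20 and 24.1 kb (1.42). One of chromosome 12 with Zfp996, 5730507C01Rik, LOC115488002, Gm9241 and Gm40847 covered 18.0, 20.2, 7.96 and 26.6 kb (1.42). One of chromosome 3 with S100a7l2, Gm36323 and Gm35185 covered 15.1, 12, 8.20 and 26.5 kb (1.37), and one of chromosome 15 without genes 10.4, 12.9, 5.46 and 17.1 kb (1.30). Reads from near-identical copies can be shared or lost, so these values are uncertain.

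**Figure D4:**
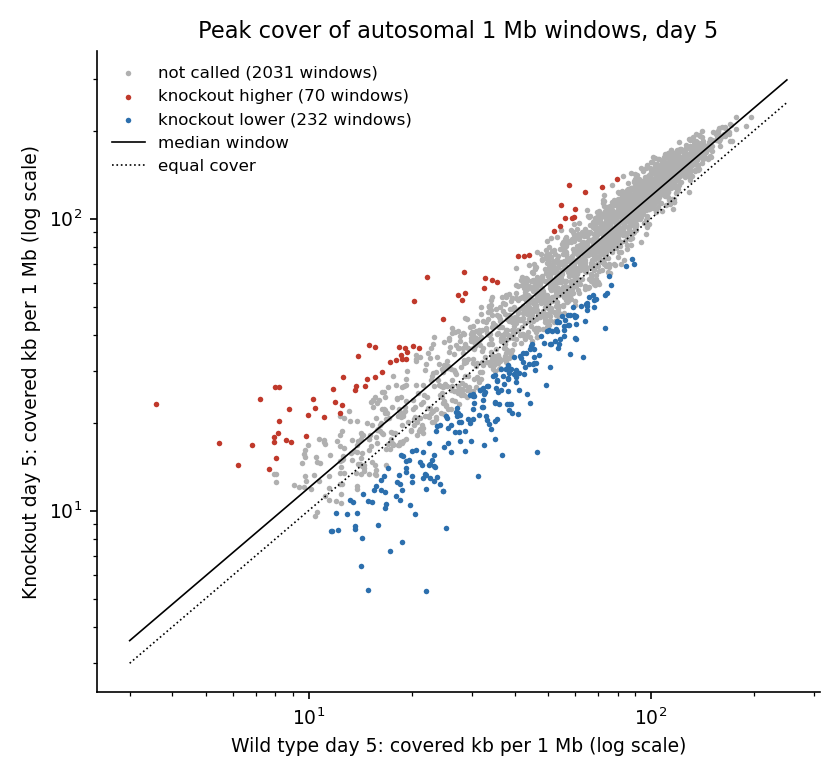
Covered kb per autosomal 1 Mb window at day 5 in wild type (horizontal, log scale) and the knockout (vertical, log scale), 1 point per window, with windows called higher in red and lower in blue. The solid line is the median window and the dotted line equal cover, and 232 windows lie at or below the lower call against 70 at or above the higher one, mostly where cover is low.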

How the data were processed

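Single-nucleus ATAC-seq peak lists of 4 libraries were used, 1 per group. The authors deposited, per the file headers, chromosome, start and end of each peak in 3 columns, with no score, count or p-value. Those headers give cellranger-arc 2.0.0 and mm10, 1 run for each library. Scanpy 1.7.2 also stands in the submitters' processing notes. Doublet handling is not given in the sources used here, and depth is unknown. The RNA side of the assay was not analysed here.

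Gene positions, transcript starts and promoter sequences came from RefSeq tables (GRCm38.p6): 17492 of 21887 protein-coding genes had a start. Covered bp were computed with Python 3.11.15, numpy 2.4.6, pandas 2.3.3 and scipy 1.17.1, and the code was tested on simulated peak lists. Overlap was at least 1 bp, the pseudocount 500 bp, and intervals are 95% Clopper-Pearson. For a locus, the interval is that of the ratio of its peak numbers, shifted by the same median.

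The comparison, the gene lists and the rules were chosen with earlier results of these data known. Named genes are 14 fixed genes, the 2 highest and 2 lowest members of each list, the 15 highest and lowest loci, genes of the 5 highest and lowest windows, list members with a start peak in 1 library, and genes at the 5 widest unshared peaks of each library. Other called list members, uncalled ones beside them, and the Y-linked genes were chosen after their values were seen. Some genes that these rules name are not reported here. The alternatives changed the overlap, list length, windows, flanks, pseudocount, minimum, centring and call size. No test was possible with 1 library per group.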

Additional observations from a re-analysis of the deposited data

Results flagged for a closer look

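On chromosome Y, 3 genes (Eif2s3y, Uty and Ddx3y) had a peak in the day 5 wild type and in no other library, and Y is outside the autosomal comparison. At 9 named loci the knockout was lower than wild type at day 5 and higher at day 0, each by at least 0.5 (log2, relative to the median locus). The difference between days was not tested, since each day has 1 library per genotype. These were Ptn (−0.61 at day 5, 0.64 at day 0), Cd44 (−0.81, 0.74), Sema3c (−0.96, 0.66), Rspo2 (−0.72, 0.69), Fgf10 (−0.67, 0.68), Aldh1a1 (−0.76, 0.93), Postn (−1.02, 0.72), Rpl15 (−0.59, 0.51) and Gm2115 (−1.19, 0.64). No named locus showed the opposite pattern at these sizes. The share of all loci with either pattern is not given, so these counts cannot be set beside it. At each of these loci the day 5 interval of the peak-number ratio reached above 0. At Fgf10 it ran from −2.43 to 0.74, with 10 peaks in wild type and 7 in the knockout. At Aldh1a1, a retinoic acid synthesis gene, cover was 6.34 kb (wild type) and 13.6 kb (knockout) on day 0, then 11.6 and 8.33 kb on day 5.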

How the results depend on the processing

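Depth is unknown, so no value has a floor, and single loci with few peaks are imprecise. With a reciprocal overlap of 50%, 37.2% of knockout and 24.5% of wild-type peaks were unshared. With an overlap of 50% of the peak, these were 37.0 and 24.1%, the shares of knockout-only peaks listed at day 0 were 43.3% (wild type) and 50.9% (knockout), and those of wild-type-only peaks 19.1 and 23.8%. The widest peaks in equal numbers gave 33.2 and 33.0% unshared, shares at day 0 of 49.2% for knockout-only peaks in the knockout and of 32.8 and 26.9% for wild-type-only peaks, 1063 genes with a start peak in wild type only, and an axon guidance median of −0.38. On autosomes 35.7% of knockout peaks were unshared. Within 5 kb of a start lay 8.43 and 6.72% of unshared peaks. Loci called higher and lower numbered 3871 and 184 without centring, 1791 and 1130 with no minimum, 79 and 151 with a minimum of 20000 bp, and 97 and 78 with a call at 1. With the gene body only, 826 were called higher and 262 lower, Pou5f1 was at 1.05, and Gm52051 (−0.11), Bhmt (−0.14), Lmo4 (−0.04) and Bola3 (−0.13) reversed. Windows called higher and lower numbered 3188 and 3686 at 100 kb, 0 and 9 at 5 Mb, 330 and 93 without centring, and 10 and 37 with a call at 1. Without genes over 300 kb, chosen after seeing the data, the axon guidance median was −0.27. Of 31 called named loci, 26 to 31 kept their call under the flank, peak-number, pseudocount and list-length alternatives. Of 130 values of the other lists, 6 moved: with 10 kb flanks Notch (−0.27), Wnt (0.15), bivalent (−0.21), mitotic (−0.22) and ribosomal protein genes (−0.16), and Hox genes (−0.24) with equal list lengths. The cause was not tested, except that a larger minimum or call leaves fewer loci by construction. No paired analysis was possible because each group has 1 library and no test was run.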

Other observations

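Gene families chosen after their values were seen went in both directions. Over all loci, 5.10% were called higher and 4.23% lower. Of 348 loci of Zfp zinc finger genes that passed, 36 were called higher in the day 5 knockout and 3 lower, with a median of 0.12 (−0.02 at day 0). All 9 Ugt1a glucuronosyltransferase genes were called higher, but they share 1 window. Of 188 Olfr olfactory receptor loci that passed, of 1101 genes, 35 were called higher and 21 lower. Reads of repeated families can be shared between copies, so these values are uncertain.

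Counts for families of neuronal adhesion and synapses stand beside 4.23% called lower over all loci. Among them, 3 of 4 Lrrtm loci and 5 of 12 contactin (Cntn) loci were called lower and 0 higher, with medians of −0.79 and −0.31. Of 27 cadherin (Cdh) loci, 6 were called lower and 2 higher, with a median of −0.05. Of 66 protocadherin loci 4 were called lower, near that share, with a median of −0.19.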
